A study of Mus musculus with 48 samples.

Results

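Microglia, the resident macrophages of the brain, survey the tissue with motile processes, take up debris and signal through receptors for colony-stimulating factor, fractalkine, extracellular nucleotides and lipids. Their identity depends on CSF1R signalling and on transcription factors such as PU.1, the product of Spi1, and SALL1, and during damage or neurodegeneration the lipid receptor TREM2 and its adaptor TYROBP act upstream of a change in their gene programme. In Huntington's disease, caused by an expanded CAG repeat in HTT, changes of microglia have been described, and MSH3, a DNA mismatch repair protein, is known to promote further expansion of the repeat in somatic cells. Described here are 32 genes with high expression in microglia or other myeloid cells, listed by symbol, of 48795 genes in the deposited tables, of which 20010 passed a low-count filter. All 32 passed.

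RNA of the cerebral cortex was sequenced in 48 mice aged 6 months, listed under a C57BL/6 background. The groups were Q140 x Msh3-/- (n = 8), Q140 x Msh3+/- (n = 8), Q140 (n = 8), Msh3-/- (n = 8), Msh3+/- (n = 9) and wild type, WT (n = 7). Q140 mice carry 1 knock-in Htt allele per the labels (Het KI), in combination with 2, 1 or 0 altered Msh3 alleles, and the labels name no treatment. The labels do not say how the Msh3 alleles were altered. Each group had 4 males, and 4 females except for 5 in Msh3+/- and 3 in WT. Deposited totals lay between 35.9 and 64.5 M counts per library (M, 10 to the power 6). Each library is labelled as a mouse of its own, and p-values measure the spread between these mice. The whole tissue was used, so fewer microglia and less RNA per microglial cell cannot be told apart in any value below.

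The labels were checked first. Msh3 RNA averaged 113 ± 6.74 CPM in Q140 x Msh3-/-, 66.6 ± 4.17 CPM in Q140 x Msh3+/-, 23.7 ± 1.36 CPM in Q140, 109 ± 7.91 CPM in Msh3-/-, 67.4 ± 5.11 CPM in Msh3+/- and 24.2 ± 1.06 CPM in WT mice (SD; CPM, counts scaled to a library of 1 M by TMM-adjusted library sizes). The 3 Msh3 genotypes did not overlap, and Msh3 RNA was higher, not lower, with altered alleles. Counts over the whole gene do not show which part of the transcript was made. Htt averaged 237 to 242 CPM in all 6 groups. Abhd1, a gene that marks the Q140 groups in these data, reached at most 3.61 CPM in the 24 mice without Q140 and at least 5.23 CPM in 20 of the 24 labelled Q140. The libraries labelled Q140 x Msh3-/- female 3, Q140 x Msh3-/- female 4 and Q140 x Msh3+/- male 2 lay at 2.89, 2.62 and 2.89 CPM, and that labelled Q140 x Msh3-/- female 1 at 3.63 CPM. Groups are named as labelled, and comparisons that hold these libraries are also given without the 3 within the range of mice without Q140. On the second principal component (PC2) of log2 CPM Q140 x Msh3-/- male 4, Q140 male 1 and Msh3+/- male 2 lay at 35.04, 36.45 and 32.42, and the other 45 mice at 15.7 or below. Ttr, a choroid plexus gene, was high in Msh3-/- female 4 (1090 CPM), WT male 3 (353 CPM) and Msh3-/- female 3 (106 CPM).

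The tissue held clear microglial RNA. Levels between genes are compared in the deposited FPKM values, which are scaled by gene length, as means over the 48 mice. Ctss, a lysosomal cysteine protease, had the highest level, 38.1 ± 3.81 FPKM (SD). Next came Csf1r, the receptor for CSF1 and IL-34 on which microglial survival depends, at 15.7 ± 1.03 FPKM, and P2ry12, the ADP receptor that directs microglial processes to injury, at 12.4 ± 0.983 FPKM. Tyrobp followed at 9.82 ± 1.33 FPKM and Cx3cr1, the fractalkine receptor, at 9.57 ± 0.707 FPKM. These 5 genes do not all separate from their neighbours: the range over mice of P2ry12, 9.47 to 14.2 FPKM, overlapped those of Tyrobp, 7.69 to 15.1 FPKM, and Cx3cr1, 7.5 to 11.2 FPKM.

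**Figure D1:**
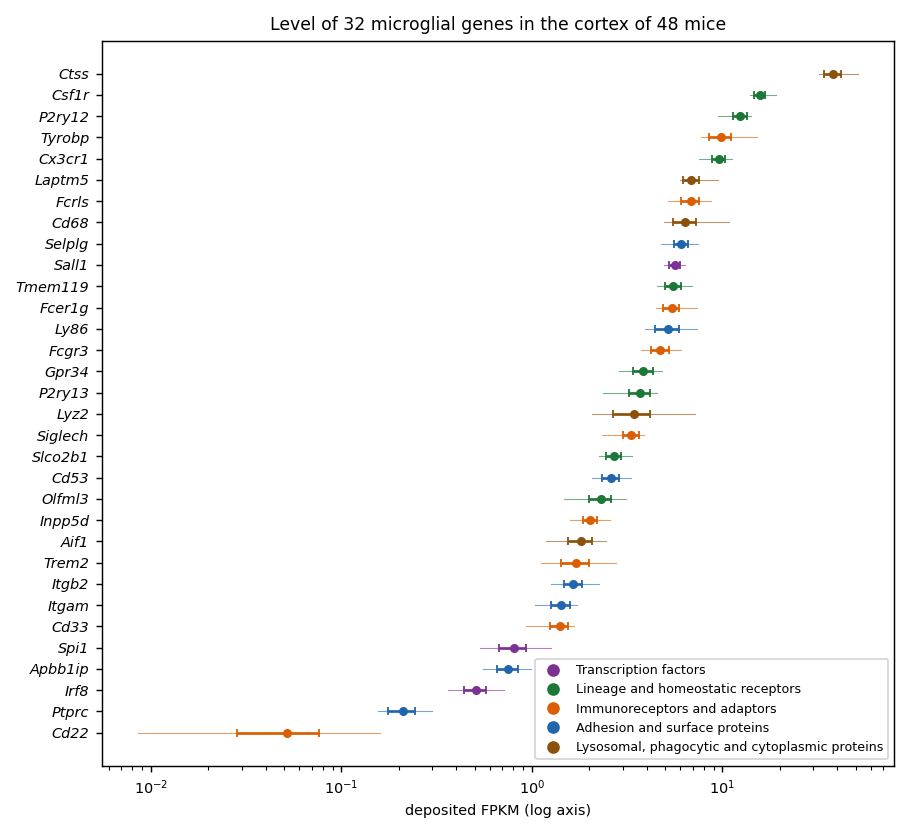
Level of each of the 32 microglial genes, in deposited FPKM on a log axis, as the mean over 48 mice (point), its SD (bar with caps) and the lowest and highest mouse (thin line), coloured by role. Levels run from Cd22 at 0.0521 FPKM to Ctss at 38.1 FPKM, and the spread between mice is widest for Cd22.

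The lowest levels were those of Ptprc, the CD45 phosphatase of all white blood cells, at 0.21 ± 0.0333 FPKM, and of Cd22, a sialic acid-binding inhibitory receptor, at 0.0521 ± 0.0239 FPKM. Cd22 rested on a mean of 12.1 counts per library, from 2 to 40, and its SD was 45.8% of its mean. Among the other 31 genes that share lay between 6.4% for Sall1 and 22% for Lyz2, lysozyme. Together the 32 genes took 0.0417% to 0.059% of the counts of a library. Few markers of blood cells passed the filter, 3 of 19 for monocytes and neutrophils and 5 of 16 for lymphocytes. Of border-associated macrophages, which line vessels and meninges, 14 of 16 markers passed. By summed level the lists did not rank this way, with 111, 43.2 and 40.8 CPM in WT mice. The highest genes of the first 2 lists were Fn1 and Vcan, and Ighm and Trbc2, and which cells gave them was not tested. None of the markers in these 3 lists had 0 counts in every mouse.

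The 32 genes fall into 5 roles. The transcription factors are Spi1, Irf8, an interferon regulatory factor, and Sall1, a zinc finger factor that maintains microglial identity. Lineage and homeostatic receptors and markers are Csf1r, Cx3cr1, P2ry12, the related P2ry13, Gpr34, a lysophospholipid receptor, Tmem119, a membrane protein used to tell microglia from other macrophages, Olfml3, a secreted protein, and the transporter Slco2b1. Immunoreceptors and adaptors are Trem2, Tyrobp, the Fc receptor chains Fcer1g and Fcgr3, Fcrls, the sialic acid lectins Siglech, Cd33 and Cd22, and Inpp5d, the SHIP1 phosphatase. Adhesion and surface proteins are Itgam and Itgb2, the subunits of complement receptor 3, Ptprc, Cd53, a tetraspanin, Selplg, the P-selectin ligand, Apbb1ip, which links RAP1 to integrins, and Ly86. Ctss, Cd68, Lyz2, Laptm5 and Aif1, the IBA1 protein, are lysosomal, phagocytic or cytoplasmic. On GRCm38 (GENCODE M21 positions) none lies within 10 Mb of Htt or Msh3. P2ry12 (chromosome 3, 59216272 to 59262871) and P2ry13 (59207892 to 59210882) are neighbours, as are Tmem119 (chromosome 5, 113793729 to 113800516) and Selplg (113818536 to 113832644), and Gpr34 is on chromosome X.

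Promoter sequences of RefSeq on GRCm38.p6, from 250 bases before to 50 bases after the start, were at hand for 25 of the 32 genes, 32 promoters in all. There was no entry for Csf1r, Gpr34, Itgb2, Selplg, Spi1, Tmem119 and Tyrobp. PU.1 is known to bind purine-rich sites around GAGGAAGT. These 8 letters, searched on both strands, stood in the promoters of 5 of the 25 genes (20%), beside 997 of all 27025 genes in the table (3.69%) and 3.2% of its 32851 promoters. The shorter GAGGAAG, which lies within the longer motif, stood in 12 of the 25 genes (48%), beside 15.4% of all genes. All 5 occurrences of the longer motif began within 20 bases of the start, as did 17.3% of its 1073 occurrences in all promoters. The 5 windows of 30 bases are shown, 5′ to 3′ on the strand of the gene, because they hold that motif at or beside the start site, and capitals mark it or its reverse complement.
Inpp5d: gtttctataatGAGGAAGTtctgtgcagct
Ctss: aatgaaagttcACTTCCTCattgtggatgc
Apbb1ip: gggctcaaagcACTTCCTCctccctgagcc
Cd53: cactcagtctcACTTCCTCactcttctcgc
Slco2b1: agtccatgaggGAGGAAGTgactcatcttc
The windows lie at chr1:87620281-87620310 on the plus strand for Inpp5d, chr3:95526773-95526802 on the plus strand for Ctss, chr2:22774321-22774350 on the plus strand for Apbb1ip, chr3:106790125-106790154 on the minus strand for Cd53 and chr7:99711316-99711345 on the minus strand for Slco2b1. The motif begins 20 bases before the start of Inpp5d and 2 bases before that of Ctss. In Apbb1ip it begins at base 6 of the transcript, and in Cd53 and Slco2b1 at base 7. A match of letters is a description of the sequence and not a binding site.

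Group means of the recognised markers of microglia lay close together in the 6 groups. Cx3cr1 averaged 35.2 ± 2.46 CPM in Q140 x Msh3-/-, 36.6 ± 3.57 CPM in Q140 x Msh3+/-, 36.6 ± 2.8 CPM in Q140, 36.6 ± 1.42 CPM in Msh3-/-, 35.4 ± 1.95 CPM in Msh3+/- and 34.5 ± 2.71 CPM in WT mice (SD). P2ry12 averaged 32 ± 2.62, 31.8 ± 3.28, 31.6 ± 2.5, 32 ± 1.48, 31.1 ± 2.11 and 30.3 ± 2.29 CPM in the same order of groups, and Csf1r 76.2 ± 5.03, 77.1 ± 3.37, 78.8 ± 6.61, 77.5 ± 5.44, 75.8 ± 4.32 and 75.6 ± 6.36 CPM. Tmem119 group means lay between 12.5 CPM in WT and 13.1 CPM in Q140 x Msh3-/- mice. Itgam group means lay between 6.76 CPM in Msh3+/- and 7.52 CPM in Q140 mice, Aif1 between 2.56 CPM in Msh3+/- and 2.95 CPM in Q140 mice, and Spi1 between 2.04 CPM in Q140 x Msh3+/- and 2.4 CPM in Q140 mice. The summed level of the 32 genes averaged 478 ± 22.3 CPM in Q140 x Msh3+/- and 461 ± 21.8 CPM in Msh3+/- mice, and 486 ± 45.2 CPM in Q140 and 462 ± 27.7 CPM in WT mice, with the means of both Msh3-/- groups between these. In each of these measures the largest distance between group means was smaller than the range within every group.

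In Q140 against WT mice, which differ in 1 Htt allele with unaltered Msh3, 31 of the 32 microglial genes lay above WT by small amounts and none was called. The median log2 fold change of the 32 genes was 0.0837, beside 0.00193 over all genes tested. Of all genes tested 50.9% lay above WT. The 32 genes varied together from mouse to mouse, as described further on. Counts of genes by direction or role, here and below, are therefore not independent observations. Calls here and below are a Benjamini-Hochberg adjusted p under 0.05 over all 20010 genes in edgeR's quasi-likelihood test with genotype and sex, fitted to all 48 mice. In this comparison 0.01% of all genes were called. An unadjusted p under 0.05 was found for 5 of the 32 and for 1096 of all 20010 genes.

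The largest difference was that of Cd22, with 0.0977, 0.365 and 0.791 CPM (lowest, median and highest) in Q140 mice against 0.0424, 0.184 and 0.33 CPM in WT mice. The groups overlapped, although 5 of the 8 Q140 mice lay above the highest WT mouse. Its log2 fold change was 1.08 ± 0.29 (SE; adjusted p = 0.575). Apbb1ip had 5.1, 5.96 and 7.3 CPM in Q140 mice against 4.09, 4.91 and 6.24 CPM in WT mice, a log2 fold change of 0.23 ± 0.09 (adjusted p = 0.892). P2ry13 had 8.42, 9.82 and 11.4 CPM in Q140 mice against 5.95, 8.49 and 10.4 CPM in WT mice (0.22 ± 0.09, adjusted p = 0.892). Both overlapped widely between the groups. Laptm5, a lysosomal membrane protein, had 22.7, 27.8 and 35.4 CPM in Q140 mice against 23.1, 24.3 and 30.4 CPM in WT mice (0.15 ± 0.07), and Cd53 stood at 0.15 ± 0.07 (both adjusted p = 0.892).

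The genes by which microglia are usually recognised had small differences. Cx3cr1 had 33.1, 36.3 and 41.4 CPM in Q140 mice against 31.1, 34.4 and 38.7 CPM in WT mice, a log2 fold change of 0.09 ± 0.05 with a 95% interval of -0.02 to 0.2. P2ry12 stood at 0.06 (-0.05 to 0.17), Csf1r at 0.06 (-0.04 to 0.16), Tmem119 at 0.04 (-0.11 to 0.19) and Aif1 at 0.04 (-0.17 to 0.25). Itgam stood at 0.14 (-0.03 to 0.3), Cd68, a lysosomal protein of phagocytes, at 0.14 (-0.04 to 0.32) and Spi1 at 0.09 (-0.14 to 0.32). Trem2 stood at 0.13 (-0.08 to 0.33) and its adaptor Tyrobp at 0.02 (-0.15 to 0.19). Fcgr3 was the single gene below WT. By role, 8 of 8 homeostatic receptors and markers, 7 of 7 adhesion and surface proteins, 5 of 5 lysosomal and cytoplasmic proteins, 3 of 3 transcription factors and 8 of 9 immunoreceptors lay above WT.

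**Figure D2:**
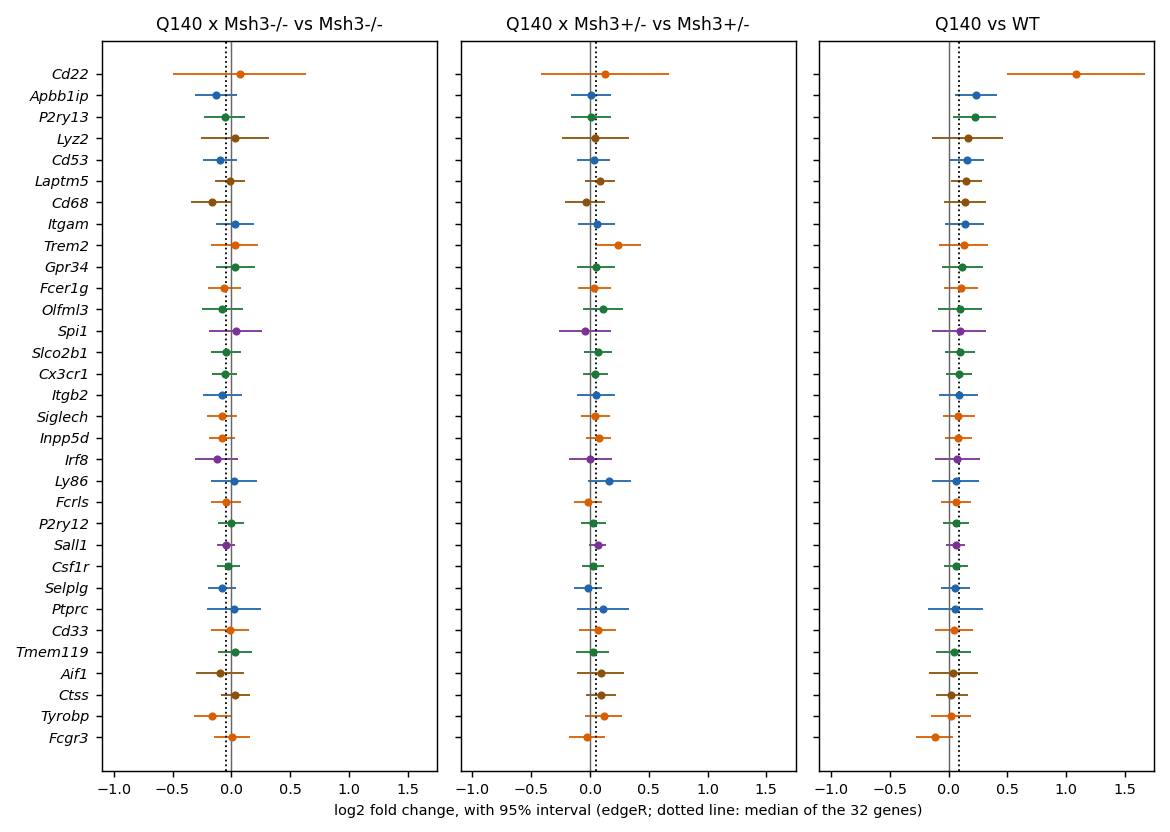
Log2 fold change of each of the 32 genes with its 95% interval (edgeR), for Q140 x Msh3-/- against Msh3-/-, Q140 x Msh3+/- against Msh3+/- and Q140 against WT, genes ordered by the last. The dotted line is the median of the 32 genes, -0.043, 0.047 and 0.0837; most intervals hold 0.

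One library stood apart in the 32 genes. Q140 male 3 had the highest level of all 48 mice in 20 of the 32 genes, and its mean log2 deviation over the 32 genes from the average mouse was 0.403, where the other 47 mice lay between -0.185 and 0.143. Q140 male 3 also had the highest slope of counts on transcript GC content of all 48 libraries (0.0949, described further on). Border-associated macrophage markers summed to 50.9 CPM in this mouse, the highest of the Q140 group, whose lowest was 32.3 CPM. Without it, 25 of the 32 genes lay above WT with a median of 0.0344, and Cd22 stood at 0.78 (adjusted p = 0.89; 0.127 to 0.999 over the alternatives). The 3 libraries high on PC2 had low means over the 32 genes, -0.1799 in Q140 x Msh3-/- male 4, -0.1683 in Q140 male 1 and -0.1114 in Msh3+/- male 2. Q140 x Msh3-/- male 4 was the lowest of its group in 16 of the 32 genes, Q140 male 1 in 17 and Msh3+/- male 2 in 6. Without these 3, 31 of the 32 genes lay above WT in Q140 mice with a median of 0.111, and Cd22 stood at 1.24 (adjusted p = 0.127). In males alone the median was 0.19, with 31 of 32 genes higher, and in females alone it was -0.0216, with 14 of 32 higher. The sexes share no mice, and the Q140 effect is compared between them further on. Choroid plexus markers lay below WT in 6 of 6 genes (median -1.29), with WT male 3 among the WT mice, and without the 3 libraries with high Ttr 29 of the 32 microglial genes lay above WT with a median of 0.0618. The mean deviation was 0.0734 ± 0.244 in Q140 males and -0.113 ± 0.0645 in WT males (SD, n = 4 each). It was 0.0524 ± 0.0601 in Q140 females (n = 4) and 0.0446 ± 0.101 in WT females (n = 3).

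**Figure D3:**
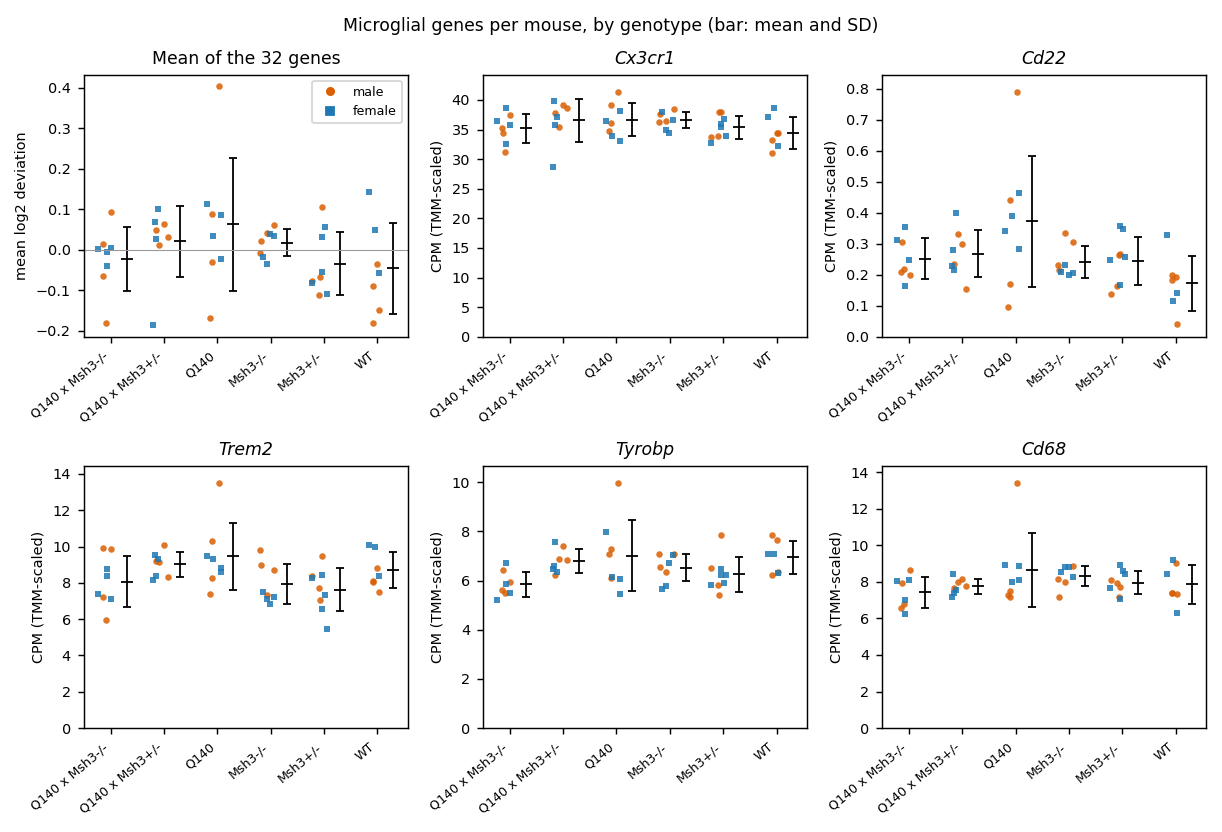
Mean log2 deviation of the 32 genes from the average mouse, and CPM of Cx3cr1, Cd22, Trem2, Tyrobp and Cd68, for each mouse by genotype, males as circles and females as squares, with the mean and SD of each group. Groups overlap in every panel, and Q140 male 3 is the highest mouse for the mean (0.403) and for all 5 genes.

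With 1 altered Msh3 allele, Q140 x Msh3+/- against Msh3+/-, 27 of the 32 genes lay above Msh3+/- with a median of 0.047 (all genes, -0.0026). None was called, where 0.015% of all genes were. Trem2 had 8.15, 9.18 and 10.1 CPM in Q140 x Msh3+/- mice against 5.47, 7.69 and 9.46 CPM in Msh3+/- mice, a log2 fold change of 0.24 ± 0.10 (adjusted p = 0.78). The groups overlapped, but the lowest Q140 x Msh3+/- mouse lay above the median of Msh3+/-. This was the 1 gene of the 32 with an unadjusted p under 0.05, where 1240 of all 20010 genes had one. Next were Sall1 (0.06 ± 0.04, adjusted p = 0.78), Ly86 (0.16 ± 0.09, adjusted p = 0.782) and Ctss (0.10 ± 0.06, adjusted p = 0.809). Tyrobp had 6.22, 6.73 and 7.58 CPM in Q140 x Msh3+/- mice against 5.4, 6.21 and 7.86 CPM in Msh3+/- mice. All 8 homeostatic receptors and markers lay above Msh3+/-, with a median of 0.0365. Without the 3 libraries with low Abhd1, 26 of the 32 genes lay above Msh3+/-, and Trem2 stood at 0.24. Leaving out the 3 libraries high on PC2 gave 25 genes above and a median of 0.0383.

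With both alleles altered, Q140 x Msh3-/- against Msh3-/-, the direction was mixed: 12 of the 32 genes lay above and 20 below Msh3-/-, with a median of -0.043 (all genes, -0.00257). None was called, and 0% of all genes were by edgeR (1361 of 20010 had an unadjusted p under 0.05, and 0 of the 32). DESeq2 called 5 genes and limma voom 0, none of the 32. Tyrobp had 5.23, 5.74 and 6.72 CPM in Q140 x Msh3-/- mice against 5.65, 6.63 and 7.08 CPM in Msh3-/- mice (-0.16 ± 0.08, adjusted p = 0.731). Cd68 had 6.26, 7.47 and 8.65 CPM in Q140 x Msh3-/- mice against 7.19, 8.38 and 8.85 CPM in Msh3-/- mice (-0.16 ± 0.09, adjusted p = 0.749). Apbb1ip stood at -0.13 ± 0.09 (adjusted p = 0.789) and Inpp5d at -0.08 ± 0.06 (adjusted p = 0.792). Trem2 averaged 8.07 ± 1.39 CPM in Q140 x Msh3-/- and 7.93 ± 1.08 CPM in Msh3-/- mice (SD, n = 8 each). Choroid plexus markers, 6 of 6, lay below Msh3-/- in this comparison with a median of -2.25, and the 2 Msh3-/- libraries with high Ttr are among the mice compared. Without the libraries with high Ttr, 24 of the 32 microglial genes lay below Msh3-/- with a median of -0.0519, and without those with low Abhd1 20 did, with a median of -0.031. With the 3 libraries high on PC2 left out, 19 lay below, with a median of -0.0257.

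Averaged over the 3 Msh3 genotypes, 24 mice with Q140 against 24 without, 26 of the 32 genes were higher with a median of 0.0309 (all genes, -0.000255), and none was called, where 0.035% of all genes were. The smallest p belonged to Cd22 (0.43 ± 0.16, adjusted p = 0.735), Trem2 (0.13 ± 0.06, adjusted p = 0.816), Laptm5 (0.08 ± 0.04, adjusted p = 0.864) and Itgam (0.08 ± 0.05, adjusted p = 0.909). In females alone 16 of the 32 were higher, and in males alone 30. Choroid plexus markers lay lower with Q140 in 6 of 6 genes (median -1.28, all 6 with an unadjusted p under 0.05, as had 1127 of all 20010 genes). Without the libraries with high Ttr, 26 of the 32 microglial genes were higher with a median of 0.0228. Astrocyte markers lay lower in 11 of 12 genes (median -0.0455, 4 with an unadjusted p under 0.05), oligodendrocyte markers in 10 of 12, meningeal and fibroblast markers in 10 of 12, border-associated macrophage markers in 11 of 14 and haemoglobin genes in 5 of 5, none of them called. Their part in the microglial values was not tested. Without the 3 libraries with low Abhd1 27 of the 32 were higher with a median of 0.0308, and without the 3 high on PC2 28 were, with a median of 0.0464.

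The Q140 effect was compared directly between Msh3 genotypes. Between Msh3-/- and unaltered Msh3 the difference of the Q140 effects was below 0 for 30 of the 32 genes, with a median of -0.134 (all genes, -0.00291). None was called, and 0% of all genes were by edgeR (1070 with an unadjusted p under 0.05, among them 6 of the 32), as by DESeq2 and limma voom (0 genes each). Apbb1ip gave -0.36 ± 0.12, Cd22 -1.01 ± 0.41, Cd53 -0.25 ± 0.10 and Cd68 -0.30 ± 0.13 (all adjusted p = 0.922). In females alone 18 of the 32 were below 0 with a median of -0.0233, and in males alone 30 with a median of -0.231. Between Msh3+/- and unaltered Msh3 the difference was below 0 for 22 of the 32 genes, with a median of -0.0367 (all genes, -0.00434), again with no call (0% of all genes by edgeR, 1286 of them and 1 of the 32 with an unadjusted p under 0.05, and 0 genes each by DESeq2 and limma voom). Cd22 gave -0.96 ± 0.40 (adjusted p = 0.721), Apbb1ip -0.22 ± 0.12 (adjusted p = 0.78), P2ry13 -0.21 ± 0.12 (adjusted p = 0.789) and Cd68 -0.18 ± 0.12 (adjusted p = 0.827). Without Q140 male 3, 26 and 14 of the 32 genes were below 0 in these 2 contrasts. Without the 3 libraries with low Abhd1 28 were below 0 with Msh3-/- (median -0.132) and 23 with Msh3+/- (median -0.0465), and without the 3 high on PC2 31 (median -0.139) and 27 (median -0.0741). Both contrasts use the same Q140 and WT mice, so their values are not independent.

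Altered Msh3 without Q140 gave no call among the 32 genes. In Msh3-/- against WT, 25 of the 32 lay above WT with a median of 0.0391 (all genes, -0.00143), and 0.035% of all genes were called. Fcer1g, the signalling chain of activating Fc receptors, had 4.43, 4.97 and 5.58 CPM in Msh3-/- mice against 3.9, 4.36 and 4.91 CPM in WT mice (0.19 ± 0.07, adjusted p = 0.848). P2ry13 had 9.03, 9.8 and 10.3 CPM in Msh3-/- mice against 5.95, 8.49 and 10.4 CPM in WT mice (0.22 ± 0.09, adjusted p = 0.848). The Msh3-/- mice were within the WT range for P2ry13, and above its median in every mouse. Olfml3 (0.16 ± 0.09, adjusted p = 0.897) and Apbb1ip (0.15 ± 0.09, adjusted p = 0.905) came next. In Msh3+/- against WT, 17 of the 32 lay above WT with a median of 0.00458 (all genes, 0.0013), where 0.025% of all genes were called. P2ry13 (0.18 ± 0.09, adjusted p = 0.522), Trem2 (-0.18 ± 0.10, adjusted p = 0.575), Tyrobp (-0.14 ± 0.08, adjusted p = 0.588) and Fcer1g (0.12 ± 0.07, adjusted p = 0.594) had the smallest p. Here 26 of 32 genes lay above WT in males, 6 of 32 in females, 11 of 32 without the libraries with high Ttr and 18 of 32 without the 3 libraries high on PC2. Border-associated macrophage markers lay above WT in 12 of 14 genes in Msh3+/- mice (median 0.272) and in 10 of 14 in Msh3-/- mice (median 0.159), and their part in the microglial values was not tested.

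Among Q140 mice most of the 32 genes lay lower with altered Msh3, and none was called. In Q140 x Msh3-/- against Q140, 27 of the 32 genes lay below Q140 with a median of -0.0885 (all genes, -0.00727). None was called, where 0.045% of all genes were. An unadjusted p under 0.05 was found for 6 of the 32, all below Q140, and for 1814 of all 20010 genes. Tyrobp had 5.23, 5.74 and 6.72 CPM in Q140 x Msh3-/- mice against 5.44, 6.61 and 9.97 CPM in Q140 mice, a log2 fold change of -0.26 ± 0.08 (adjusted p = 0.337). Cd68 had 6.26, 7.47 and 8.65 CPM in Q140 x Msh3-/- mice against 7.19, 8.03 and 13.4 CPM in Q140 mice (-0.22 ± 0.09, adjusted p = 0.432). Inpp5d stood at -0.14 ± 0.06 (adjusted p = 0.443), Apbb1ip at -0.21 ± 0.09 (adjusted p = 0.46) and Trem2 at -0.23 ± 0.10 (adjusted p = 0.483). The groups overlapped for each of these genes. Without Q140 male 3, 22 of the 32 lay below Q140 with a median of -0.0311, Tyrobp at -0.18 and Cd68 at -0.10, and without the 3 libraries with low Abhd1 26 of the 32 did, with Tyrobp at -0.26. Leaving out the 3 libraries high on PC2 gave 28 genes below and a median of -0.0758. In Q140 x Msh3+/- against Q140, 24 of the 32 lay below Q140 with a median of -0.0341 (all genes, -0.00188), where 0.02% of all genes were called and none of the 32. Cd53 (-0.15 ± 0.07), Spi1 (-0.24 ± 0.11), Cd68 (-0.16 ± 0.09) and Cd22 (-0.48 ± 0.26) had the smallest p (all adjusted p = 0.96). Without Q140 male 3 this count was 13 of 32, without the 3 libraries with low Abhd1 25 (median -0.0417) and without the 3 high on PC2 27 (median -0.0566). Both comparisons share the Q140 mice with the comparison of Q140 and WT.

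Other genes linked to myeloid cells were counted beside the 32. Which cells of the cortex gave their RNA was not tested, so their values are not read as microglial alone. In Q140 against WT, 11 of 25 further homeostatic microglial genes, 18 of 31 disease-associated microglial genes, 25 of 36 genes of TREM2-TYROBP and CSF1R signalling and 18 of 28 purinergic and Fc receptors and innate sensors lay above WT, with medians of -0.0131, 0.0125, 0.0291 and 0.0556 and no call in any list. In Q140 x Msh3-/- against Q140 the counts below Q140 were 11 of 25, 19 of 31, 24 of 36 and 17 of 28, again with no call. The smallest p in the disease-associated list were those of Itgax, an integrin of activated microglia, at -1.78 ± 0.57 (adjusted p = 0.337), and Clec7a, a glucan receptor, at -1.65 ± 0.60 (adjusted p = 0.384). Of the border-associated macrophage markers, 4 of 14 lay above WT in Q140 mice (median -0.0536), and 11 of 14 lay above Q140 in Q140 x Msh3-/- mice (median 0.0966). Of the myeloid transcription factors other than the members, 7 of 16 lay above WT in Q140 mice. In WT mice the homeostatic, disease-associated, signalling, sensor and transcription factor lists summed to 1770, 3470, 1920, 86.9 and 1350 CPM. The 32 genes summed to 462 CPM. The 2 highest genes of these lists were Cst3 and Bin1, Fth1 and Apoe, Cx3cl1 and Sirpa, P2rx4 and Tlr3, and Mef2c and Mef2a.

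Sex was the contrast in which microglial genes were called. Between 24 males and 24 females 5.56% of all genes were called, and 2 of the 32, a count near that background. The sexes were spread unevenly over the plate rows, and every library of row C was male. With plate row as a factor 265 of all genes were called in place of 1112. Part of the difference between sexes can therefore not be told apart from plate row. Fcrls, a microglial Fc receptor-like scavenger protein known in mice (chromosome 3, 87250758 to 87263738), had 11.9, 14.7 and 19.1 CPM in males against 14.6, 17 and 20.5 CPM in females. The ranges overlapped, with the female median above most males. Its level fell to 14.9 ± 1.45 CPM in males, against 16.9 ± 1.3 CPM in females (SD, n = 24 each), a log2 fold change of -0.18 ± 0.04 (edgeR adjusted p = 0.0012). It was lower in males in 6 of 6 genotypes, and it was called in each of the 16 alternatives, with adjusted p between 8.1e-05 and 0.0383. Sall1 (chromosome 8, 89027235 to 89044162) had 26.9, 30.1 and 33.3 CPM in males against 26.4, 29 and 31.9 CPM in females, a rise of 0.07 ± 0.02 (adjusted p = 0.0401), and was higher in males in 6 of 6 genotypes. This call was lost in 7 alternatives, among them the plate row as a factor, with adjusted p = 0.143, and leaving out the 3 libraries with low Abhd1, with adjusted p = 0.0983 (0.0125 to 0.143 over the 16 alternatives).

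**Figure D4:**
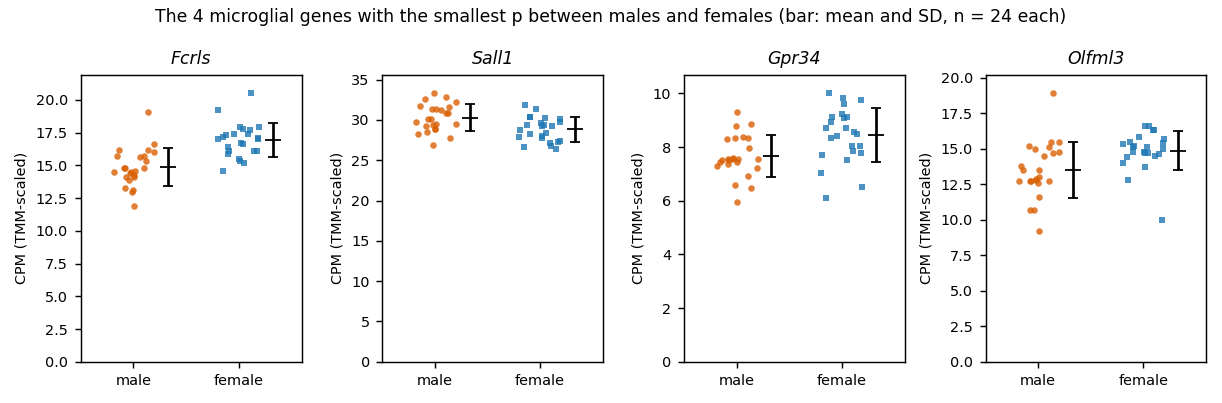
CPM of Fcrls, Sall1, Gpr34 and Olfml3 in each of the 24 males (circles) and 24 females (squares), with the mean and SD. The ranges overlap for each gene, with means of 14.9 CPM in males and 16.9 CPM in females for Fcrls.

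Gpr34, on chromosome X, averaged 7.66 ± 0.78 CPM in males and 8.43 ± 1.01 CPM in females (-0.14 ± 0.05, adjusted p = 0.0702), and Olfml3 averaged 13.5 ± 2.01 CPM in males and 14.9 ± 1.38 CPM in females (-0.14 ± 0.05, adjusted p = 0.0946). Both missed the threshold, although both were lower in males in 6 of 6 genotypes. Ctss stood at 0.09 ± 0.04 (adjusted p = 0.13). Over the 32 genes 13 lay above and 19 below females, with a median of -0.014, beside 0.00193 over all genes. Without the 3 libraries high on PC2, all of them male, 13 lay below females with a median of 0.00526, and Ctss was called with Fcrls and Sall1 (0.13, adjusted p = 0.0177). Siglec1, a sialic acid receptor of border-associated macrophages, fell by 1.35 ± 0.19 on the log2 scale (adjusted p = 3.61e-06), 12 of 14 markers of these cells lay below females (median -0.186), and the markers summed to 39.6 ± 7.29 CPM in males and 44.5 ± 5.1 CPM in females. Haemoglobin genes lay above females in 5 of 5 (median 0.906, all 5 with an unadjusted p under 0.05) and summed to 6.76 ± 4.33 CPM in males and 3.52 ± 3.01 CPM in females. Meningeal and fibroblast markers lay below females in 11 of 12 genes and oligodendrocyte markers in 10 of 12, none called, and of 12 astrocyte markers 3 fell and 1 rose. The part of these cells in the differences of Fcrls and Sall1 was not tested. In the innate sensor list Nlrp3, an inflammasome sensor, fell by 0.57 ± 0.13 (adjusted p = 0.00467) and Casp1, the protease it activates, by 0.22 ± 0.07 (adjusted p = 0.0494), and in the TREM2-TYROBP and CSF1R list Vav3 and Lyn fell and Coro1a rose in males.

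The Q140 effect was also compared between the sexes. Over the 3 Msh3 genotypes, 27 of the 32 genes had a higher Q140 effect in males than in females, with a median difference of 0.0478 (all genes, 0.00223). None was called, and 0% of all genes were by edgeR (897 with an unadjusted p under 0.05, among them 2 of the 32), as by DESeq2 and limma voom (0 genes each). Itgb2, the shared chain of leukocyte integrins, gave 0.28 ± 0.08 and Csf1r 0.13 ± 0.05 (both adjusted p = 0.986). Itgb2 averaged 5.42 CPM in Q140 males and 4.66 CPM in WT males, against 4.99 CPM in Q140 females and 5.23 CPM in WT females. Csf1r averaged 81 CPM in Q140 males and 71 CPM in WT males, against 76.6 CPM in Q140 females and 81.8 CPM in WT females. Fcgr3 (0.18 ± 0.09) and Cd53 (0.14 ± 0.08) came next (both adjusted p = 0.986). Without Q140 male 3 the count was 21 of 32, without the 3 libraries with low Abhd1 26 (median 0.0459) and without the 3 high on PC2 29 (median 0.084). The Q140 effect was also higher in males in 13 of 14 border-associated macrophage markers (median 0.29), 12 of 12 meningeal and fibroblast markers (median 0.211) and 6 of 6 choroid plexus markers (median 0.768), and lower in males in 12 of 12 oligodendrocyte markers (median -0.0893). None of these was called, and their part in the values was not tested.

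The 32 genes varied together from mouse to mouse. Deviations of log2 CPM from the mean of the same genotype and sex gave 496 pairs of genes, with a median Pearson r of 0.34 and the middle 50% between 0.216 and 0.459. In a two-sided permutation test over 48 mice (100000 permutations, Benjamini-Hochberg over the 496 pairs) 271 pairs had an adjusted p under 0.05, 270 with positive and 1 with negative r, and 180 pairs passed with Spearman's rho. Deviations were permuted across all mice and not within genotype and sex. Removing the means leaves fewer free values than mice, so p-values and counts of passing pairs here and below are too favourable. Pairs of other genes were not put to this test. Without the 3 libraries high on PC2 185 pairs passed with a median r of 0.272, and without the 2 mice farthest from the median of the first gene of each pair the median r was 0.24, with 442 of 496 pairs above 0. Median r between the 32 genes and other markers was 0.168 for astrocytes, 0.166 for meninges and fibroblasts and 0.154 for border-associated macrophages. It was 0.153 for endothelial and mural cells, 0.00347 for neurons and -0.219 for oligodendrocytes. For the further lists it was 0.135 (homeostatic), 0.176 (disease-associated), 0.186 (TREM2-TYROBP and CSF1R signalling) and 0.159 (receptors and sensors). By this measure the 32 genes followed further homeostatic microglial genes no more closely than astrocyte markers. All pairs share the same 48 libraries and their scaling.

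The highest pair was Csf1r with Laptm5 (r = 0.78, rho = 0.72; 0.70 without the 2 mice farthest from the median). Cx3cr1 and P2ry12 followed (r = 0.72, rho = 0.66; 0.62 without 2 mice), then P2ry12 and Siglech (r = 0.71, rho = 0.62; 0.60 without 2 mice), P2ry13 and Siglech (r = 0.71, rho = 0.64; 0.62 without 2 mice) and Siglech and Cd33 (r = 0.70, rho = 0.57; 0.58 without 2 mice). Each had p = 1e-05 for r, the smallest that 100000 permutations can give, and adjusted p = 0.000191. Of these 5 pairs, 4 join surface receptors of resting microglia. Ctss had the highest median r to the other members, 0.47, and Tmem119 the lowest, 0.17.

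**Figure D5:**
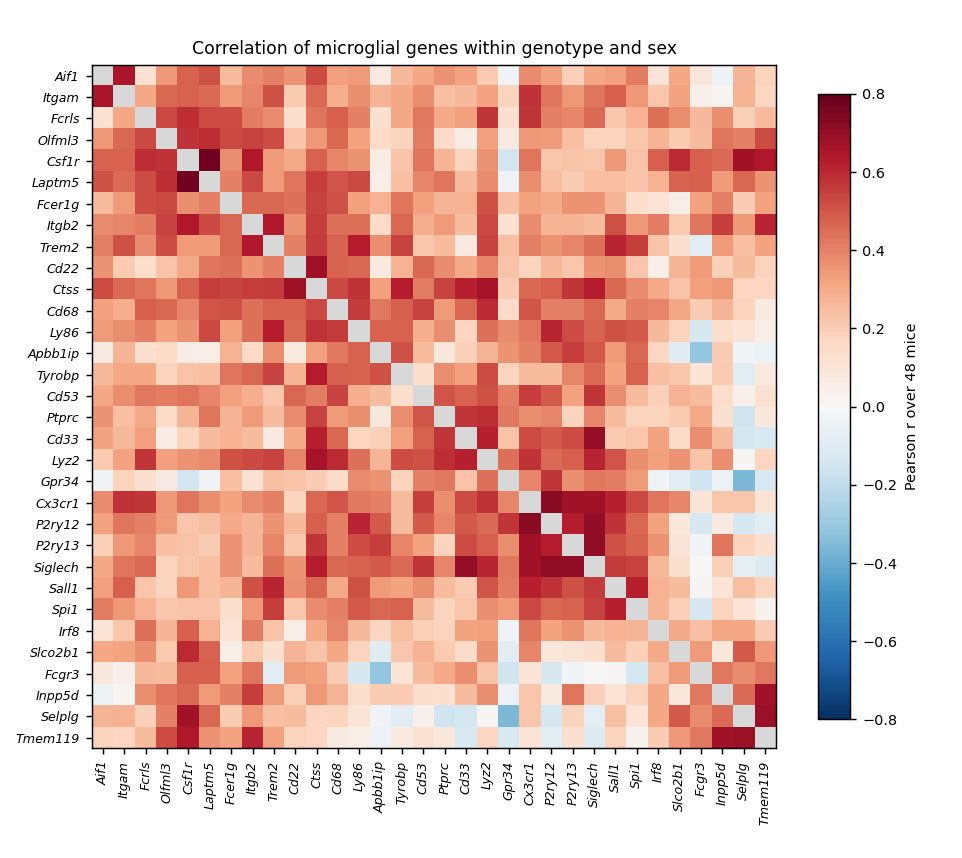
Pearson r between each pair of the 32 genes over 48 mice, after removing the mean of each genotype and sex, ordered by average-linkage clustering. Most pairs are positive (469 of 496), with a block of Cx3cr1, P2ry12, P2ry13 and Siglech and a second of Inpp5d, Selplg and Tmem119.

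The lowest pairs were Gpr34 with Selplg (r = -0.36, rho = -0.44, adjusted p = 0.0263; -0.32 without 2 mice), Fcgr3 with Apbb1ip (r = -0.31, rho = -0.38, adjusted p = 0.0567) and Ptprc with Selplg (r = -0.16, rho = -0.25, adjusted p = 0.317). The dependence of a library's counts on GC content moved with these values. The slope of a library's deviations on transcript GC, per 10 percentage points, lay between -0.154 in Q140 x Msh3-/- male 4 and 0.0949 in Q140 male 3. Its r with the members ran from -0.42 for Gpr34 (transcript GC 37.1%) to 0.62 for Csf1r (54.5%) and 0.64 for Selplg (49.8%). With that slope removed, Gpr34 and Selplg gave r = -0.14, Cx3cr1 and P2ry12 0.76, Csf1r and Laptm5 0.78, the median was 0.322, and 242 pairs passed, all positive. In females alone 34 pairs passed with a median r of 0.218, and in males alone 230 with a median of 0.441. Q140 male 3 and the 3 libraries high on PC2 are all male, and their part in this difference was not tested.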

How the data were processed

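The labels' protocols give Qiagen RNeasy extraction and stranded TruSeq libraries. The authors deposited counts of reads per gene and FPKM values, which are scaled by gene length and library size. Alignment and counting tools listed in the submitters' processing notes are HTSeq 0.12.3, SAMtools 1.10 and STAR 2.7.5c, with GRCm38 as the build. The annotation release and the strand setting of the counting are not given in the sources used here. All 169 pairs of libraries of a group differed beyond sampling noise (chi-square at least 4.09 per degree of freedom), so none was counted as a duplicate.

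Counts were tested in edgeR 4.0.16 (R 4.3.3; TMM, filterByExpr, quasi-likelihood, genotype and sex as terms, 41 residual degrees of freedom), after checks on simulated data, with 12 comparisons and Benjamini-Hochberg adjustment over 20010 genes. DESeq2 1.42.0 and limma 3.58.1 were alternatives. Log2 CPM used a prior count of 1. The 32 members and all lists were chosen with earlier results of these data known. By rule, the members called or the 4 with the smallest p are named in each comparison, as are the defining markers and the 5 highest and 3 lowest pairs. Counting intervals were not used, since mice are the replicates.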

Additional observations from a re-analysis of the deposited data

Results flagged for a closer look

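Each of 198 sets of values (32 genes and their mean, in 6 groups) was searched for a mouse far from the others by Dixon's ratio, and 18 stood out, where chance gives about 1 in 20. In Q140 x Msh3+/- female 1, 4 receptors lay below the other mice of the group: Cx3cr1 at 28.6 CPM (others 35.5 to 39.9 CPM), P2ry12 at 24.6 CPM (30.7 to 34.4 CPM), Siglech at 8.06 CPM (11.3 to 12.5 CPM) and Cd33 at 7.37 CPM (10.9 to 12.7 CPM). The mean log2 deviation of the 32 genes was -0.185 in this mouse and 0.0111 to 0.0995 in the others, and it was lowest in its group for 18 genes.

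Q140 male 3 lay above its group for Cd68 at 13.4 CPM (others 7.19 to 8.9 CPM), Ly86 at 7.28 CPM (4.64 to 5.67 CPM), Lyz2 at 9.02 CPM (3.26 to 4.55 CPM) and Inpp5d at 19.2 CPM (14.7 to 16.7 CPM). Q140 x Msh3-/- male 4 lay below its group for P2ry13 at 6.49 CPM (8.84 to 11.6 CPM) and Inpp5d at 12.1 CPM (14.2 to 16.1 CPM). Msh3+/- male 4 lay above its group for Tyrobp at 7.86 CPM (5.4 to 6.53 CPM) and Ly86 at 6.38 CPM (4.38 to 5.25 CPM).

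The other values were single genes. Ptprc stood at 5.06 CPM in Q140 x Msh3-/- female 1 (others 3.28 to 3.88 CPM) and at 4.72 CPM in Msh3-/- female 2 (3.34 to 3.88 CPM). Olfml3 stood at 12.6 CPM in Q140 x Msh3+/- male 3 (14.4 to 15.8 CPM), Inpp5d at 13.5 CPM in Msh3+/- male 3 (14.7 to 15.9 CPM) and Laptm5 at 30.4 CPM in WT female 3 (23.1 to 25.9 CPM).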

How the results depend on the processing

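Of 1707 values under 24 alternatives, 1673 were scored as unchanged. For single genes that meant the same direction and side of the threshold. Median fold changes could move by less than 0.101, the SD between mice of the mean log2 level, and counts by a set ratio. This allowance was wider than most of the medians, among them 0.0837 in Q140 against WT. The total of unchanged scores therefore does not show that the medians held. Sign was not scored for medians and counts, and some medians crossed 0. Medians ran from -0.0651 to 0.0479 in Msh3+/- against WT and from -0.0366 to 0.00526 between males and females. In Q140 against WT the range was -0.0216 to 0.19, and in the averaged Q140 effect -0.000233 to 0.0657. It was -0.0566 to 0.00771 in Q140 x Msh3+/- against Q140. For the difference of Q140 effects between Msh3+/- and unaltered Msh3 it was -0.109 to 0.0323. Members called in genotype comparisons were 0 in each of 227 combinations of comparison and alternative, many of which come from the same fit. With the replicate block (sex and replicate number) 0 members were called in each of the 11 genotype comparisons; mice of the same sex and number did not deviate together (mean r -0.00771 over 115 pairs), so the numbers were not used as pairs. Of the 48 libraries 36 share the stem of their column name with another, in 15 stems, 13 of which span groups; what a stem stands for is not given in the sources used here. Libraries of 1 stem and different groups had a mean r of 0.0677 over 23 pairs, against -0.00158 over 936 pairs of other stems. With the stem as a random block in limma (correlation 0.104) 0 members were called in each genotype comparison. The settings without Q140 male 3, with the GC slope, and without 4 libraries of low Abhd1 were chosen after seeing the data, as were the counts of members by direction.

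Between males and females 1 member was called in place of 2 with no low-count filter, with plate column or plate row as a factor, with a random block for the name stem, and without the 3 or the 4 libraries with low Abhd1. Sall1 was the call lost (adjusted p 0.051 to 0.143 in 7 settings, edgeR or limma), Gpr34 was gained in DESeq2 (0.0484) and with the GC slope (0.0431), and Olfml3 with limma quality weights (0.036) and without Q140 male 3 (0.0198). In females alone the median of Q140 against WT was -0.0216 with 14 members higher, 6 were higher in Msh3+/- and 16 in Msh3-/- against WT, 16 in the averaged Q140 effect, the median difference of Q140 effects with Msh3-/- was -0.0233, and 34 pairs passed. In males alone the median of Q140 against WT was 0.19, and 26 members were higher in Msh3+/- against WT. Without libraries of high Ttr 11 were higher in Msh3+/- against WT, and without Q140 male 3, 13 were lower in Q140 x Msh3+/- against Q140. Directions reversed for Apbb1ip in Msh3-/- against WT (-0.07 in females), P2ry13 in the Q140 effect with Msh3+/- (0.01 in females) and Trem2 in Msh3+/- against WT (0.01 in males). The cause was not tested; fits on 1 sex hold fewer mice. Depth limits Cd22 most, at 2 to 40 counts per library.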
